A study of Rattus norvegicus with 12 samples.

Results

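The cytosolic ribosome is built from ribosomal RNAs and many ribosomal proteins, whose mRNAs are short, abundant and transcribed in nearly every cell, the kidney's included. In mammals most of these mRNAs begin with a terminal oligopyrimidine tract, a run of C and U bases at the 5′ end through which growth signalling adjusts their translation. Rplp1 encodes P1, an acidic protein of the stalk of the large subunit, where translation factors dock. Rpl13a encodes another protein of the large subunit, which in human monocytes is also known to leave the ribosome and silence inflammatory mRNAs. Both genes are in common use as reference genes in RNA assays.

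The signals of these linear mRNAs were followed in kidneys of 12 male rats, 3 from each of 4 strains, on 1-colour arrays made for circular RNAs (circRNAs). The strains were the Dahl salt-sensitive rat (S) and the spontaneously hypertensive rat (SHR), which are models of hypertension, and the Dahl salt-resistant rat (R) and the Wistar Kyoto rat (WKY), their usual normotensive counterparts. All rats ate a diet with 0.3% NaCl from weaning and were killed at 57 days of age, and none carried a transgene or received a drug, per the labels. All kidney RNA was digested before labelling with RNase R, an exonuclease that degrades linear RNA from the 3′ end and spares circles. What was left was labelled by random priming, and the signal of an mRNA probe was taken here to be linear RNA. The probe sequences were not used, so signal from circles that hold the same bases cannot be told from that of the linear mRNA. No undigested array was analysed here, so the share of each mRNA that was left has no value.

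The arrays held 14227 probes that were no controls, of which 14145 were circRNA probes and 62 others carried an accession of a linear RNA. The accessions of 39 of these 62 matched 1 gene each in the RefSeq gene table of the rat assembly GRCr8, and 35 of the 39, for 34 genes, were bright enough to test. Exactly 1 probe belonged to Rplp1 and 1 to Rpl13a, chosen by accession and not by signal. Among the matched probes there was no other ribosomal protein and none (0 of 10) of the listed translation factors. The other 23 accessions had no match in the table and were given no gene name. Of 24 listed markers of kidney tubule, podocyte, endothelium, leukocytes and red cells only the leukocyte gene Nlrp3 had a matched probe, so the tissue label and the cell makeup could not be checked. In whole kidney, fewer cells of a type and less RNA per cell cannot be told apart.

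Rplp1 lies on the minus strand at chr8:71289539-71290872 of GRCr8 (NM_001007604), a span of 1334 bases. Rpl13a lies on the minus strand at chr1:104746223-104748975 (NM_173340), a span of 2753 bases that also holds 4 annotated snoRNA genes. The same table lists 3 Rplp1 pseudogenes and 3 Rplp1-like genes, and 12 symbols named as Rpl13a pseudogenes. The probe sequences were not used here, so signal from these near copies cannot be told from that of the parent gene.

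The start region of each gene is shown because both hold a pyrimidine run of the kind by which ribosomal protein mRNAs are known. The sequences are RefSeq's, from GRCr8, on the gene's strand, with 60 bases before and 20 from the start that the promoter table uses. Capitals mark the longest run of pyrimidines that has C as its first base and at least 1 base within 10 bases of that start. For Rplp1 this start is the 5′ end of the gene's span, and for Rpl13a it lies 62 bases inside the span, so all bases shown for Rpl13a are within the annotated gene.
Rplp1, chr8:71290853-71290932: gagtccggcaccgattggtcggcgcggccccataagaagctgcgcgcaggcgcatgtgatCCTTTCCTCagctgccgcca
Rpl13a, chr1:104748894-104748973: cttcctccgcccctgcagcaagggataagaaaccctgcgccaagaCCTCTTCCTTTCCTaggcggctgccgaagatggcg
The run is 9 bases long in Rplp1 and opens at the start used. In Rpl13a it is 14 bases long and opens 15 bases before the start used, inside the gene's span. A run of at least 8 bases, searched on the gene's strand only, was found in 10.2% of the 33469 promoters in the table and in 62 of 174 (35.6%) with a ribosomal protein symbol. The symbol pattern also admits like genes such as Rplp1l1, so 35.6% is not the share of the ribosomal protein genes alone. Among the 28 promoters matched to genes of the array's mRNA probes it was found in 3, those of Rplp1, Rpl13a and Hprt1. The minimum length and the window were set after the sequences were seen, and such a match is a description, not a start site of the mRNA.

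Both mRNAs were low in every S and R kidney and, apart from SHR rat 2, higher in every SHR and WKY kidney. On the log2 scale used here the 75th percentile of each array's circRNA probes was set to 0. Rplp1 stood at -1.77, 0.21 and -0.76 in S rats 1 to 3 and at 0.20, 0.31 and 0.70 in R rats 1 to 3. Its values were 5.77, 0.20 and 5.01 in SHR rats 1 to 3 and 2.52, 6.27 and 5.85 in WKY rats 1 to 3. The S and R values overlapped, as did those of SHR and WKY, while every WKY rat lay above every S and R rat.

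SHR rat 2 lay among the Dahl rats, 0.0034 log2 units below R rat 1. From the lowest rat, S rat 1, to the highest, WKY rat 2, the Rplp1 signal spanned 263-fold. Within SHR the highest rat exceeded the lowest 47.5-fold, within WKY 13.4-fold, within S 3.93-fold and within R 1.41-fold. In WKY rat 2 only 0.227% of circRNA probes were brighter than the Rplp1 probe, and in S rat 1 51.4% were.

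Rpl13a followed the same division at lower contrast. It stood at -2.45, -2.55 and -3.15 in S rats 1 to 3 and at -2.88, -2.94 and -2.35 in R. In SHR rats 1 to 3 it was 0.13, -3.08 and -0.33, and in WKY rats -1.24, 0.48 and -0.32. Again SHR rat 2 was low, below all 3 R rats. For either gene the 7 lowest rats were S, R and SHR rat 2, and the next rat up was WKY rat 1, with a gap of 1.83 log2 units for Rplp1 and 1.12 for Rpl13a.

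**Figure D1:**
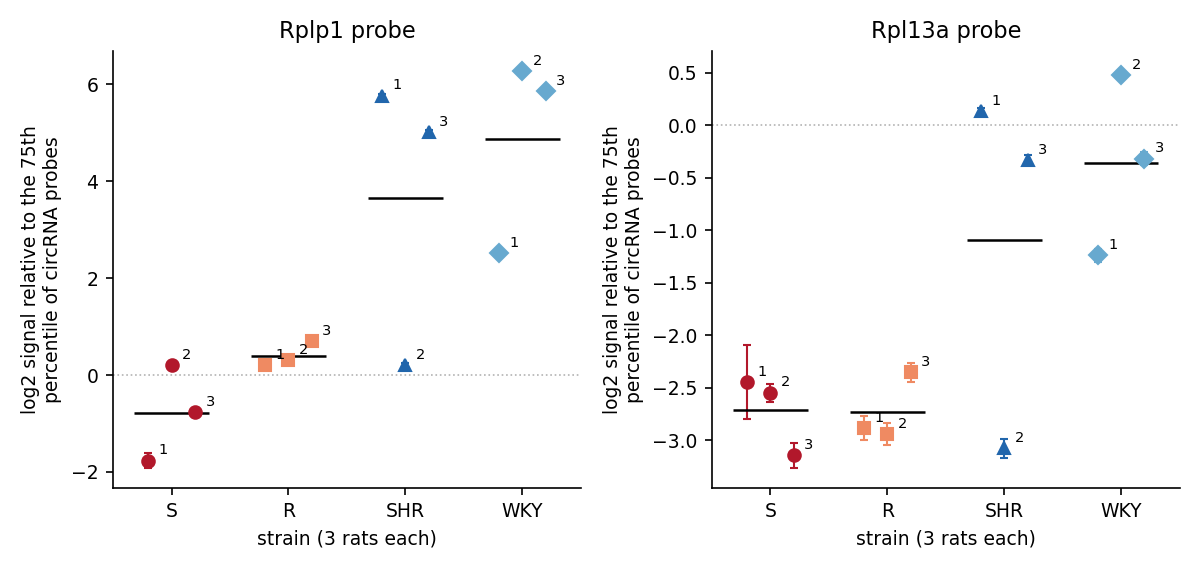
Scaled log2 signal of the Rplp1 probe (left) and the Rpl13a probe (right) in each of 12 rats, numbered within the strain; error bars are the SD over the probe's spots on that array and black lines the strain means. Rplp1 lies between -1.77 and 0.70 in S, R and SHR rat 2 and between 2.52 and 6.27 in the other 5 rats, with spot errors mostly smaller than the symbols.

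The error of the spots was small against the spread between rats for Rplp1 and, in SHR and WKY, for Rpl13a. Each probe was printed in 10 spots per array, and the SD of the used spots on 1 array had a median of 0.046 log2 units for Rplp1 (range 0.016 to 0.15) and 0.088 for Rpl13a (range 0.028 to 0.35). Between rats the Rplp1 SD was 0.26 in R and 0.99 in S, and reached 2.05 in WKY and 3.02 in SHR. For Rpl13a it was 0.32, 0.38, 0.86 and 1.74 in the same order. No spot of either probe was saturated, and 120 of 120 Rplp1 spots and 119 of 120 Rpl13a spots were well above background. The widest spot errors belonged to S rat 1, whose 75th percentile was 6.22 log2 units, the lowest, with 7.02 to 8.15 on the remaining arrays. The Rpl13a spots of that array had an SD of 0.35, against an SD of 0.38 between the S rats. On that array the Rpl13a spots averaged an intensity of only 13.6.

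The question of the study's strain pairs, whether a hypertensive strain differs from its counterpart, gave no call for either mRNA. Rplp1 averaged -0.77 ± 0.99 (SD, n = 3) in S and 0.40 ± 0.26 in R, a log2 difference of -1.18 with an SE of 1.30 (limma adjusted p = 0.768). Between SHR, at 3.66 ± 3.02, and WKY, at 4.88 ± 2.05, the difference was -1.22 (SE 1.30, adjusted p = 0.776). Rpl13a averaged -2.71 ± 0.38 in S and -2.73 ± 0.32 in R, a difference of 0.014 with an SE of 0.74 (adjusted p = 0.995). It averaged -1.09 ± 1.74 in SHR and -0.36 ± 0.86 in WKY, a difference of -0.73 (adjusted p = 0.776).

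The 95% intervals of these differences ran from -4.00 to 1.65 and from -4.05 to 1.60 for Rplp1. They ran from -1.60 to 1.63 and from -2.35 to 0.88 for Rpl13a. With these intervals, falls of several fold could not be told from no change. Nor could rises of that size, except for Rpl13a in SHR against WKY, where the interval ended at 0.88. The fit used 1 spread per probe for all strains, and SHR and WKY rats varied more than S and R rats. Fitted with only S and R, the SE of Rplp1 was 0.49, against 1.30, and the difference was still not called (limma adjusted p = 0.251). The limma fit called 0 of the 35 mRNA probes (0%) in S against R, with 2 at an unadjusted p under 0.05, and 0 (0%) in SHR against WKY, with 0. Without SHR rat 2 the SHR minus WKY difference was 0.51 for Rplp1 and 0.26 for Rpl13a, turned in sign and still not called (adjusted p = 0.99 for both, against 0.355 to 1.00 over all alternatives).

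Pooled over both pairs, hypertensive minus normotensive, Rplp1 differed by -1.20 (SE 0.92, adjusted p = 0.568) and Rpl13a by -0.36 (SE 0.52, adjusted p = 0.695), where 0% of the 35 probes were called. Without SHR rat 2 the values were -0.33 for Rplp1 and 0.14 for Rpl13a (adjusted p = 0.916 for both, against 0.24 to 0.968 over the alternatives of Rplp1 and 0.248 to 0.968 over those of Rpl13a). Without S rat 1 and SHR rat 2 they were -0.086 and 0.071. Whether S minus R differed from SHR minus WKY was tested in the same fit. The difference was 0.043 for Rplp1 (SE 1.84, adjusted p = 0.996) and 0.75 for Rpl13a (SE 1.05, adjusted p = 0.995), with 0% of probes called.

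The contrasts that passed lay between a Dahl strain and SHR or WKY, though SHR against R passed for neither gene with all rats. Rplp1 was 22.3-fold lower in R than in WKY, a log2 fold change of -4.48 with an SE of 1.30 (limma adjusted p = 0.0225), with no overlap between the 3 rats of each. Rpl13a was 5.17-fold lower there, a log2 fold change of -2.37 with an SE of 0.74 (adjusted p = 0.0225), again with no overlap. Calls were common in this comparison, 45.7% of the 35 mRNA probes, and values without overlap were found for 74.3%, so both genes being called and apart is not particular to them. By size, described without a test, the Rplp1 log2 fold change was the lowest of the 35, whose median was -1.56, while Rpl13a ranked ninth from the lowest.

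Between the hypertensive strains the same held for Rplp1 alone. It was 21.7-fold lower in S than in SHR, a log2 fold change of -4.44 with an SE of 1.30 (limma adjusted p = 0.027), where 42.9% of the mRNA probes were called and 40% were called lower in S. S rat 2 lay just above SHR rat 2, so the groups overlapped, while 31.4% of the mRNA probes had none. Rplp1 was again the lowest of the 35 log2 fold changes, with a median of -1.53. Rpl13a differed by -1.62 (SE 0.74, adjusted p = 0.0853), short of the threshold, with a 95% interval from -3.24 to -0.010. Without SHR rat 2 it was called, at -2.62 (adjusted p = 0.000578, against 0.000578 to 0.562 over all alternatives).

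**Figure D2:**
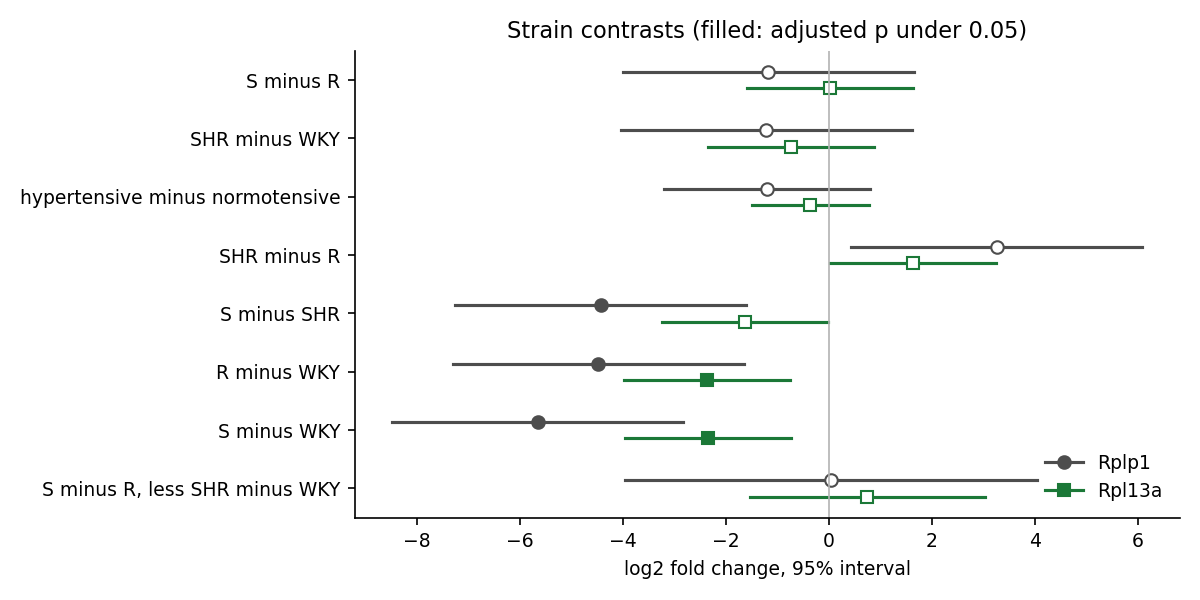
Log2 fold changes of Rplp1 (circles) and Rpl13a (squares) in 8 contrasts between strains, with 95% intervals from the fit of all 12 arrays; filled symbols passed the adjusted threshold. Both genes pass in R minus WKY and S minus WKY, only Rplp1 passes in S minus SHR, and all intervals within a strain pair span 0.

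S against WKY, fitted for the order of the strains, gave -5.66 for Rplp1 (adjusted p = 0.00398) and -2.36 for Rpl13a (adjusted p = 0.0161), without overlap for either, where 68.6% of the mRNA probes were called and 71.4% had no overlap. The Rpl13a call was lost without S rat 3 (-2.14, limma adjusted p = 0.0552) or WKY rat 2 (-1.94, adjusted p = 0.0666), with normexp background correction (-1.09, adjusted p = 0.0997) and relative to the other mRNA probes (-0.83, adjusted p = 0.164). Over all alternatives its adjusted p ran from 0.000504 to 0.164, and that of Rplp1 from 9.7e-05 to 0.0236. By mean level the order was S, R, SHR and WKY for Rplp1, and no neighbours in it differed past the threshold, the middle step from R to SHR being 3.26 (adjusted p = 0.0903). For Rpl13a the order was R, S, SHR and WKY, and neighbours did not pass there either. SHR against R called 0% of the mRNA probes with all rats. Without SHR rat 2 the SHR minus R difference was 4.99 for Rplp1 and 2.63 for Rpl13a (limma adjusted p = 0.000719 for both, against 0.000719 to 0.784 over all alternatives), and 21 of the 35 probes were called. By the slides inferred below, no R array shared a slide with an SHR array, so strain and slide cannot be told apart in this difference.

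Over all 4 strains the moderated F of the limma fit passed for Rplp1 (F = 8.43, adjusted p = 0.013) and for Rpl13a (F = 5.16, adjusted p = 0.0344), as it did for 57.1% of the mRNA probes. An exact permutation test of the plain F over all 369600 assignments of rats to strains gave p = 0.0375 for Rplp1 and p = 0.0737 for Rpl13a. With slide as a block neither limma call held (F = 4.80, adjusted p = 0.0901 for Rplp1, and F = 3.17, adjusted p = 0.149 for Rpl13a). The replicate block kept the Rplp1 call (adjusted p = 0.0362) and lost that of Rpl13a (adjusted p = 0.0627). Over all alternatives the adjusted p ran from 8.72e-05 to 0.0901 for Rplp1 and from 0.000262 to 0.229 for Rpl13a. The Rpl13a call was lost without any one of S rats 1 to 3, R rats 1 and 2, WKY rats 2 and 3 and SHR rat 3, where F was 3.52 to 4.64 and the adjusted p between 0.0543 and 0.104. The Rplp1 call was lost without S rat 1 (F = 6.13, adjusted p = 0.0547).

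The arrays were taken to lie on 2 slides, inferred from shared scan times in the file headers. By this, the Dahl arrays and WKY rats 1 and 2 made up slide 1, the SHR arrays and WKY rat 3 slide 2. On slide 1 alone Rplp1 was lower in R than in WKY by -3.99 log2 units (limma adjusted p = 0.00524) and Rpl13a by -2.35 (adjusted p = 0.00635). No S or R array shared a slide with an SHR array, so S minus SHR and SHR minus R have no value within a slide. With slide as a block, which the WKY arrays alone tie together, S minus SHR for Rplp1 was -2.98 (SE 2.37, adjusted p = 0.562) and R minus WKY -3.99 (SE 1.47, adjusted p = 0.0847). For Rpl13a the blocked R minus WKY value was -2.35 (SE 0.87, adjusted p = 0.0847). On slide 2, SHR minus the single WKY rat was -2.19 for Rplp1 (adjusted p = 0.917), where WKY was assumed to vary like SHR. SHR rat 2, at 0.20, shared that slide with SHR rats 1 and 3, at 5.77 and 5.01.

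**Figure D3:**
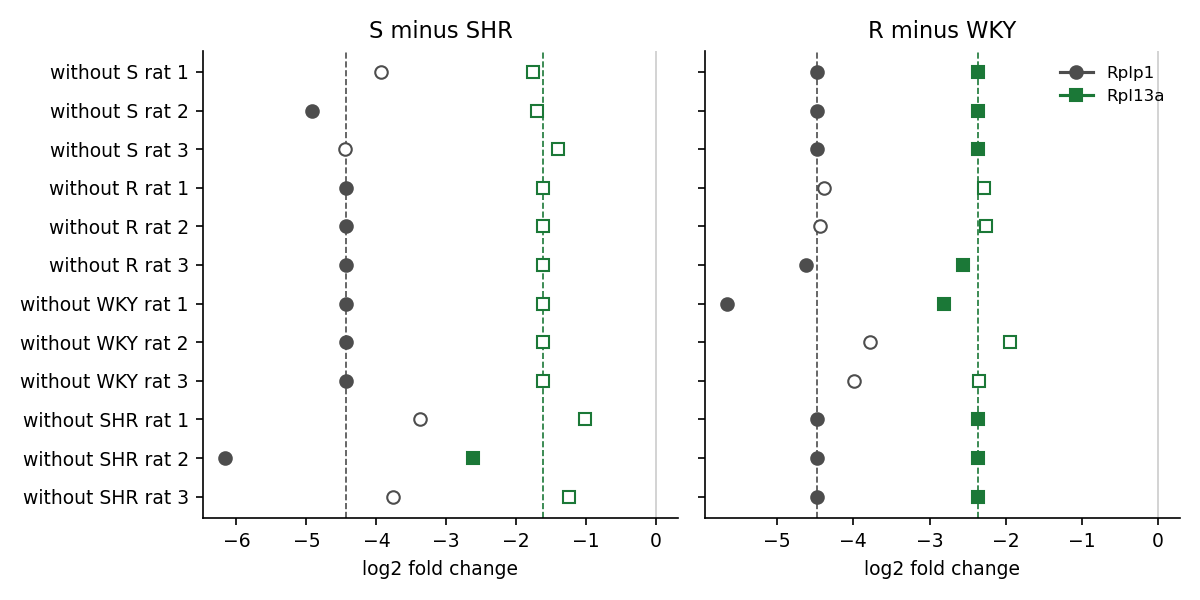
Log2 fold changes of Rplp1 (circles) and Rpl13a (squares) in S minus SHR (left) and R minus WKY (right) after leaving out each rat in turn; dashed lines are the values with all 12 rats, and filled symbols passed the adjusted threshold. All values stay below 0, and S minus SHR moves most without SHR rat 2, to -6.17 for Rplp1 and -2.62 for Rpl13a.

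Single rats decided several of these calls, though not their direction. In S minus SHR the Rplp1 value ran from -6.17 without SHR rat 2 to -3.38 without SHR rat 1, and the call was lost without S rat 1, S rat 3, SHR rat 1 or SHR rat 3 (limma adjusted p = 0.0978, 0.075, 0.111 and 0.102). In R minus WKY it ran from -5.66 without WKY rat 1 to -3.79 without WKY rat 2. Here both calls were lost on leaving out either of R rats 1 and 2 or either of WKY rats 2 and 3, with adjusted p between 0.0586 and 0.0986 for both.

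Across strains the signals of Rplp1 and Rpl13a changed unequally, though the exact test below did not pass without S rat 1. The log2 signal of Rplp1 minus that of Rpl13a, in which the scaling of the array cancels, had strain means of 1.94 ± 1.11 (SD, n = 3) for S, 3.13 ± 0.11 for R, 4.75 ± 1.29 for SHR and 5.24 ± 1.29 for WKY. By rat it was 0.68, 2.75 and 2.38 in S and 3.09, 3.25 and 3.05 in R. It was 5.64, 3.28 and 5.34 in SHR and 3.76, 5.79 and 6.17 in WKY. All S and R values lay below all SHR and WKY values, the closest pair being SHR rat 2 and R rat 2, so the contrast between strains was wider for Rplp1 than for Rpl13a. How many other pairs of mRNA probes part the strains in this way was not counted, so it is not shown to be particular to these 2. The background-subtracted intensity of Rpl13a ran from 13.6 to 198 over a local background of 22 to 30, and the part of its low signal in the difference was not tested.

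The exact permutation test of F over the same assignments gave p = 0.0219 for this difference. Without S rat 1, where both probes were dimmest, the exact p was 0.0783 (0.00195 to 0.0783 over its alternatives). For pairs of strains, 3 rats against 3 cannot give an exact two-sided p under 0.1. All pairs except SHR against WKY were without overlap and reached that p (0.12 after Benjamini-Hochberg adjustment over 6 pairs), and SHR against WKY gave an exact p of 0.5. Of single mRNA probes, 74.3% had no overlap in R against WKY and 71.4% in S against WKY. The shares were 31.4% in S against SHR, 22.9% in SHR against R and 14.3% in S against R.

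The other linear mRNA probes were, on average, low in the same rats. The mean scaled log2 signal of the 33 other tested mRNA probes lay between -2.12 and -1.79 in S and R, at -1.81 in SHR rat 2 and between -0.99 and -0.068 in the other 5 rats. Set against that mean on each array, a choice made after seeing the data, Rplp1 differed by -3.33 in S minus SHR (limma adjusted p = 0.059) and by -3.18 in R minus WKY (adjusted p = 0.0554). Set in the same way, Rpl13a differed by -1.07 in R minus WKY (adjusted p = 0.0926). The part that the amount of linear RNA left on an array has in the strain differences was not tested.

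**Figure D4:**
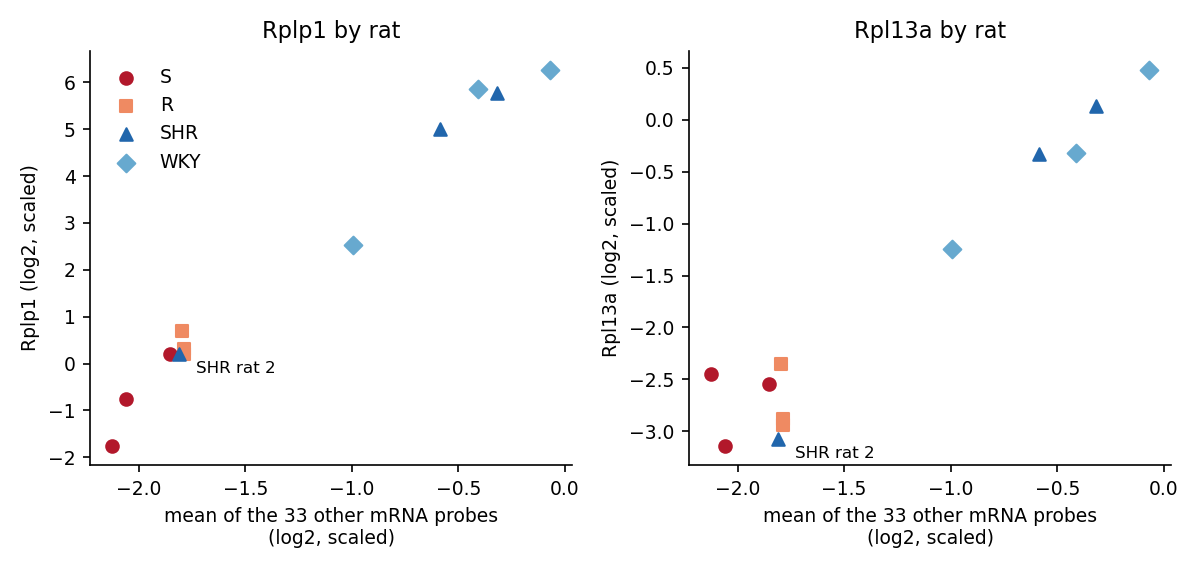
Scaled log2 signal of Rplp1 (left) and Rpl13a (right) against the mean of the 33 other mRNA probes on the same array, 1 point per rat. The 7 arrays of S, R and SHR rat 2 lie between -2.12 and -1.79 and are the 7 lowest for either gene.

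Among other common reference genes, chosen with earlier results of these data known, every probe that passed did so in the same direction. The array held 9 tested probes for 8 of them, and in S minus SHR 4 were called lower and 0 higher, with a median of -1.09. The 4 were B2m, which encodes beta-2-microglobulin, Hprt1, a purine salvage enzyme, Pgk1, a glycolytic enzyme, and 1 of 2 probes for Ldha, a subunit of lactate dehydrogenase. In R minus WKY these and the second Ldha probe made 5 called lower, with 0 higher and a median of -1.86. The log2 fold changes in S minus SHR and R minus WKY were -2.54 and -2.69 for Hprt1, and -2.75 and -2.97 for Pgk1. They were -1.83 and -2.45 for B2m. Actb, Gusb, Sdha and Hsp90ab1 passed in neither comparison, and Hsp90ab1 alone had positive values in both, 0.62 and 0.95 (limma adjusted p = 0.161 and 0.0508). Over all 33 other mRNA probes the medians were -1.40 and -1.36, with 13 called lower and 1 higher in each. S minus SHR and R minus WKY share no arrays, although both are fitted with 1 spread per probe.

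**Figure D5:**
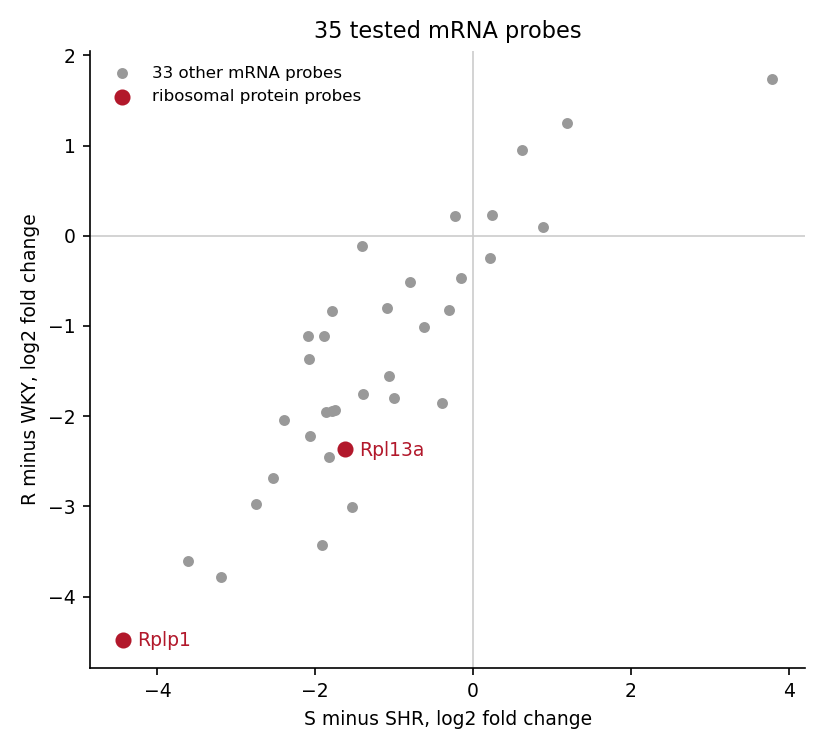
Log2 fold changes of the 35 tested mRNA probes in S minus SHR (horizontal) and R minus WKY (vertical), with the ribosomal protein probes in red. Rplp1 lies at -4.44 and -4.48, the lowest in each contrast, and Rpl13a at -1.62 and -2.37, within the other probes.

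Eif4b, an initiation factor with a matched probe, was not on the list of translation factors and was picked out after its values were seen. Strain means lay between -1.42 (SHR) and -1.14 (WKY). Neither of its log2 fold changes passed, at 0.22 in S minus SHR (limma adjusted p = 0.625) and -0.25 in R minus WKY (adjusted p = 0.618).

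The probes most like each gene were found by Pearson's r of scaled log2 values over the 12 rats, as a description. The points share the array scaling and fall into separate groups of rats, so r was also taken within the 6 S and R rats and within the 6 SHR and WKY rats. Rplp1 was most like Hprt1 (r = 0.985, and 0.816 and 0.982 within the groups), Pgk1 (r = 0.984, and 0.639 and 0.997) and Cse1l, a nuclear export receptor (r = 0.984, and 0.870 and 0.976). Rpl13a was most like Ndfip1, an adaptor of ubiquitin ligases (r = 0.983, and 0.382 and 0.993), 1 of the 2 Ldha probes (r = 0.975, and 0.494 and 0.961) and Pgk1 (r = 0.975, and 0.394 and 0.976). Hsp90ab1, a cytosolic chaperone, was least like both, with r = -0.905 for Rplp1 (0.255 within S and R and -0.952 within SHR and WKY) and -0.889 for Rpl13a (0.715 and -0.982), so the sign turned among the Dahl rats. Its strain means were highest for R, at 4.50, then S, at 4.39, SHR, at 3.77, and WKY, at 3.55.

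Between the 2 ribosomal protein probes r was 0.954 over 12 rats, 0.974 within SHR and WKY and 0.020 within S and R. Without scaling, r within S and R was 0.931. Among the Dahl rats a likeness of the 2 probes was thus seen only before scaling, when values also carry the brightness of each array. The 75th percentile of circRNA probes ran from 6.22 in S rat 1 to 8.15 in S rat 2 among these arrays. Its part in the unscaled r was not tested. High r was common among the linear probes: 13 of the 33 other mRNA probes had r above 0.9 with Rplp1 and 11 with Rpl13a, and the median r was 0.853 and 0.773. With the mean of those 33 probes r was 0.990 for Rplp1 and 0.973 for Rpl13a. Of 12413 circRNA probes with a value on every array, 511 (4.12%) had r above 0.9 with Rplp1 and 329 (2.65%) with Rpl13a. The median r was 0.0085 with Rplp1 and 0.016 with Rpl13a. The 2 most like Rplp1 were ASCRPR011466 (r = 0.987, and 0.892 within S and R and 0.988 within SHR and WKY) and ASCRPR012055 (r = 0.987, and 0.817 and 0.985). The 2 most like Rpl13a were ASCRPR004275 (r = 0.983, and 0.907 and 0.970) and ASCRPR000106 (r = 0.982, and 0.258 and 0.990).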

How the data were processed

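Kidney RNA of 12 rats was measured, 1 array per rat. Per the file headers, the authors' scanner output comes from Agilent Feature Extraction 11.0.1.1, and its processed intensity of a spot is background-subtracted and detrended, with no normalization between arrays. Limma is also named in the submitters' processing notes, with no use given. The deposited value table holds only circRNA probes and was not used.

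Intensities were taken to log2, spots with an outlier flag were left out, the 10 spots of a probe were averaged, and the 75th percentile over circRNA probes was subtracted. An mRNA probe was tested if more than 50% of its spots were well above background on every array of at least 1 strain. With 4 strain means as the model, 35 probes were fitted over the 12 arrays by lmFit and eBayes (limma 3.58.1, R 4.3.3), with p-values adjusted by Benjamini-Hochberg within a contrast, at 0.05. The same fit code was also run on values simulated for circRNA probes with equal spread in each strain. That run does not bear on mRNA probes whose spread differs between strains. Exact permutation tests were two-sided. The number of arrays limits the precision, and the labels give 1 rat per array.

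Members, gene lists and tests were chosen with earlier results of these data known. Named were both members, the 3 mRNA probes with the highest r and the 1 with the lowest for each, 2 circRNAs for each, and list members on the array. Over circRNA probes, deviations of same-numbered rats of different strains had a median correlation of -0.18 over 18 pairs (range -0.54 to 0.52). For rats of different number and strain it was 0.074 over 36 pairs (range -0.70 to 0.64), and the pairs share arrays. The main fit therefore paired no samples by number, though this check cannot exclude a pairing.

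Alternatives changed the scaling, the normalization, the background, the spot summary, the filter, the probes or strains in the fit, the variance model or a block (replicate number or slide), or left out rats. Added after seeing the data were flagged spots kept, the other mRNA probes as the reference, and S rat 1 and SHR rat 2 left out together.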

Additional observations from a re-analysis of the deposited data

How the results depend on the processing

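Precision is limited by 3 rats a strain, by 1 divergent SHR rat, and by the dim Rpl13a spots of S rat 1. The cause of a changed call was not tested unless stated. Values are log2 fold changes, or F over all strains. The Rplp1 F of 8.43 became 4.80 with slide as a block and 5.93 without moderation. The Rpl13a F of 5.16 became 3.60 with normexp, 5.86 in a fit with circRNA probes, 4.39 with the replicate block, 3.17 with slide, 4.25 without moderation and 2.18 relative to the other mRNA probes, each short of the threshold. In S minus SHR, Rplp1 lost its call at -3.68 with normexp, -2.98 with slide, -4.44 without moderation and -3.33 relative to the other mRNA probes, and Rpl13a gained one at -1.86 without scaling and -2.75 without S rat 1 and SHR rat 2. In R minus WKY, Rplp1 lost it at -4.48 fitted with circRNA probes or without moderation, -3.99 with slide and -3.18 relative to the other mRNA probes, and Rpl13a at -2.37, -2.35 and -1.07 in the same settings.

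Signs turned only where nothing was called. Without S rat 1 and SHR rat 2, SHR minus WKY was 0.51 for Rplp1 and 0.26 for Rpl13a, S minus R of Rpl13a was -0.12, its hypertensive minus normotensive value 0.071, and the difference between the strain pairs -1.19 and -0.38. Without scaling, S minus R of Rpl13a was -0.74 and the difference between pairs for Rplp1 -0.60. That difference was -0.12 with quantile normalization and -0.15 relative to the other mRNA probes.

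Leaving out 1 rat gave, for Rplp1, F from 6.13 to 25.1, SHR minus WKY from -2.40 to 0.51, S minus SHR from -6.17 to -3.38, R minus WKY from -5.66 to -3.79, the difference between pairs from -1.69 to 1.22, hypertensive minus normotensive from -1.79 to -0.33 and S minus R from -1.67 to -0.68. For Rpl13a the first 5 ran from 3.52 to 19.2, -1.35 to 0.26, -2.62 to -1.01, -2.81 to -1.95 and -0.25 to 1.36, with S minus R from -0.12 to 0.23 and hypertensive minus normotensive from -0.67 to 0.14. F of the difference between the probes ran from 4.38 to 9.55.

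The count of called mRNA probes over all strains, 20 of 35, was 5 with normexp, 10 with a filter on all 12 arrays, 32 with every accession probe, 12 with the replicate block, 0 with slide, 7 without moderation, 9 relative to the other mRNA probes and 4 to 26 without 1 rat. Here and below, the filter on all 12 arrays tested fewer than 35 probes. The setting with every accession probe added those without a gene name, so neither count is out of 35. In S minus SHR, 15 became 1, 4, 23, 0 (normexp, filter, every accession probe, slide), 3 with only these strains or without moderation, 1 relative to the other mRNA probes and 1 to 27 without 1 rat. In R minus WKY, 16 became 33 with every accession probe, 2 fitted with circRNA probes, 0 with slide, 3 without moderation, 4 relative to the other mRNA probes and 0 to 23 without 1 rat. S minus WKY gave 24, and 11, 13 and 39 with normexp, filter and every accession probe. SHR minus R gave 0, 24 without S rat 1 and SHR rat 2 and 0 to 21 without 1 rat, and S minus R 0 to 1. The replicate block changed no other call of the members.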
